A study of Homo sapiens with 15 samples.

Results

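The genes of glucose uptake and glycolysis SLC2A1, HK1, HK2, PFKP, ALDOA, GAPDH, ENO1, ENO2, PKM and LDHA (10 genes) were followed by symbol through a table of 60649 genes, and all 10 were among the 23711 genes tested. The cells were K562 cells (K-562), an established human chronic myeloid leukemia line of erythroid character that carries the BCR-ABL fusion. They were left untreated or were exposed for 24 h to martinostat, an inhibitor of histone deacetylases (HDACs), at 0.15 µM, 0.25 µM, 0.5 µM or 1 µM. Each of the 5 groups had 3 poly(A) RNA libraries, given as biological replicates, so 15 libraries entered each fit. All groups were the same line, no second line entered the data, and whether the untreated cells received the solvent was not given in the labels. The comparisons asked which steps of the pathway changed at each dose and between which doses the change occurred.

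Glycolysis turns glucose into pyruvate in the cytosol. SLC2A1 (GLUT1) carries glucose into the cell, and the hexokinases HK1 and HK2 phosphorylate it so that it stays there. PFKP is the platelet form of phosphofructokinase, the committed step, and ALDOA splits the resulting sugar. GAPDH, the enolases ENO1 and ENO2 and the pyruvate kinase gene PKM act in the later steps, and LDHA converts pyruvate to lactate. Many of these genes exist as isoform pairs with their own tissue patterns: ENO2 is known as the neuronal enolase, ALDOC as the brain aldolase, and PKLR as the pyruvate kinase gene of liver and red cells. Proliferating leukemia cells are known to use glycolysis heavily, and GAPDH is widely used as a reference transcript. HDACs remove acetyl groups from histones, and inhibitors such as martinostat leave histones more acetylated.

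At 1 µM, 6 of the 10 genes were lower than in untreated cells and 3 were higher, beside 27.5% of all tested genes lower and 38.8% higher, and 48.4% and 26.4% among genes averaging at least 10 fragments per 1000000. HK2, ENO1, LDHA, SLC2A1 and HK1 fell by between 1.88 and 3.19 on the log2 scale, and ENO2 rose by 2.79. PKM and ALDOA rose by less than 1, and PFKP fell slightly, a call that depends on how the libraries are scaled. GAPDH did not pass the test at any dose against untreated cells with the scaling used here and all libraries. ENO2, HK2, ENO1 and LDHA had already passed it at 0.15 µM, whereas SLC2A1 passed it, with this scaling and all libraries, only from 0.5 µM on.

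The libraries held between 23755510 and 32805574 counted fragments, and every member had at least 130 fragments in every library. Values below are fragments per 1000000 counted (CPM), scaled by TMM, a factor that corrects each library for its composition. The factors ran from 0.7847 to 0.8283 in untreated libraries and from 0.9504 to 1.284 in treated ones. The third replicates at 0.25 and 0.5 µM stood apart, with factors of 1.284 and 1.222, and the log2 fold changes of HK1, ALDOA, GAPDH, ENO1 and PKM at these doses are given with and without them below. Of the K562 markers, GATA1 averaged 328 CPM untreated and 18.8 at 1 µM. The summed level of all 11 markers ran from 2741 to 2881 CPM in untreated libraries, from 2057 to 2196 at 0.15 µM, from 1265 to 1636 at 0.25 µM, from 822 to 1212 at 0.5 µM and from 1162 to 1202 at 1 µM. The embryonic globin gene HBE1 was near 0 throughout. The 8 markers of other cell types summed to 157 to 171 CPM in untreated libraries, chiefly EPCAM at 141 CPM, and to 321 to 507 CPM at 1 µM, chiefly COL1A1 at 397 CPM. The B-cell marker MS4A1 was at 0 in the untreated, 0.15 and 0.25 µM groups. The part of these markers in the changes of the glycolysis genes was not tested, and in such bulk samples fewer cells of a type and less RNA per cell cannot be told apart.

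Levels of different genes were compared as CPM per kb of annotated exon. In untreated cells ENO1 stood first at 1098 ± 76.9 (SD, n = 3), followed by GAPDH at 911 ± 29.7 and LDHA at 302 ± 36.1. HK1 at 194 ± 22.3 and PKM at 178 ± 5.67 did not differ beyond their spread. SLC2A1 (48.7 ± 3.65), HK2 (36.4 ± 2.14), ALDOA (19.4 ± 2.45), PFKP (8.37 ± 0.372) and ENO2 (1.36 ± 0.180) followed, each with libraries apart from the next. The order was another at 1 µM. There GAPDH was first at 1035 ± 62.5, then PKM at 289 ± 19.2 and ENO1 at 212 ± 7.36, while HK2, at 3.98 ± 0.487, had moved from the seventh to the last place, below ENO2 at 9.39 ± 0.484. The level of ALDOA is uncertain on this scale: 89.8% of the bases of its reference transcript lie under other genes, mainly a read-through gene of the same strand that itself received 17 to 76 fragments per library, and a fragment shared by overlapping genes may have been counted for neither. For GAPDH 32.8% of these bases lie under an opposite-strand gene with 0 fragments. Together the 10 genes took 1.06% ± 0.0441 of all counted fragments in untreated libraries and 0.886% ± 0.120, 0.802% ± 0.0911, 0.735% ± 0.0841 and 0.731% ± 0.0219 at the 4 rising doses (SD, n = 3 each). At every dose all libraries lay below the 3 untreated ones, if narrowly at 0.15 µM, where the highest had 1.02% against 1.03% in the lowest untreated one. This share needs no scaling factor, but abundant members weigh most in it. ENO1 held 435298 fragments over the untreated libraries and 94924 over those at 1 µM. GAPDH (165940 and 213104) and PKM (115675 and 212930) held more at 1 µM, so the sum does not describe each member.

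**Figure D1:**
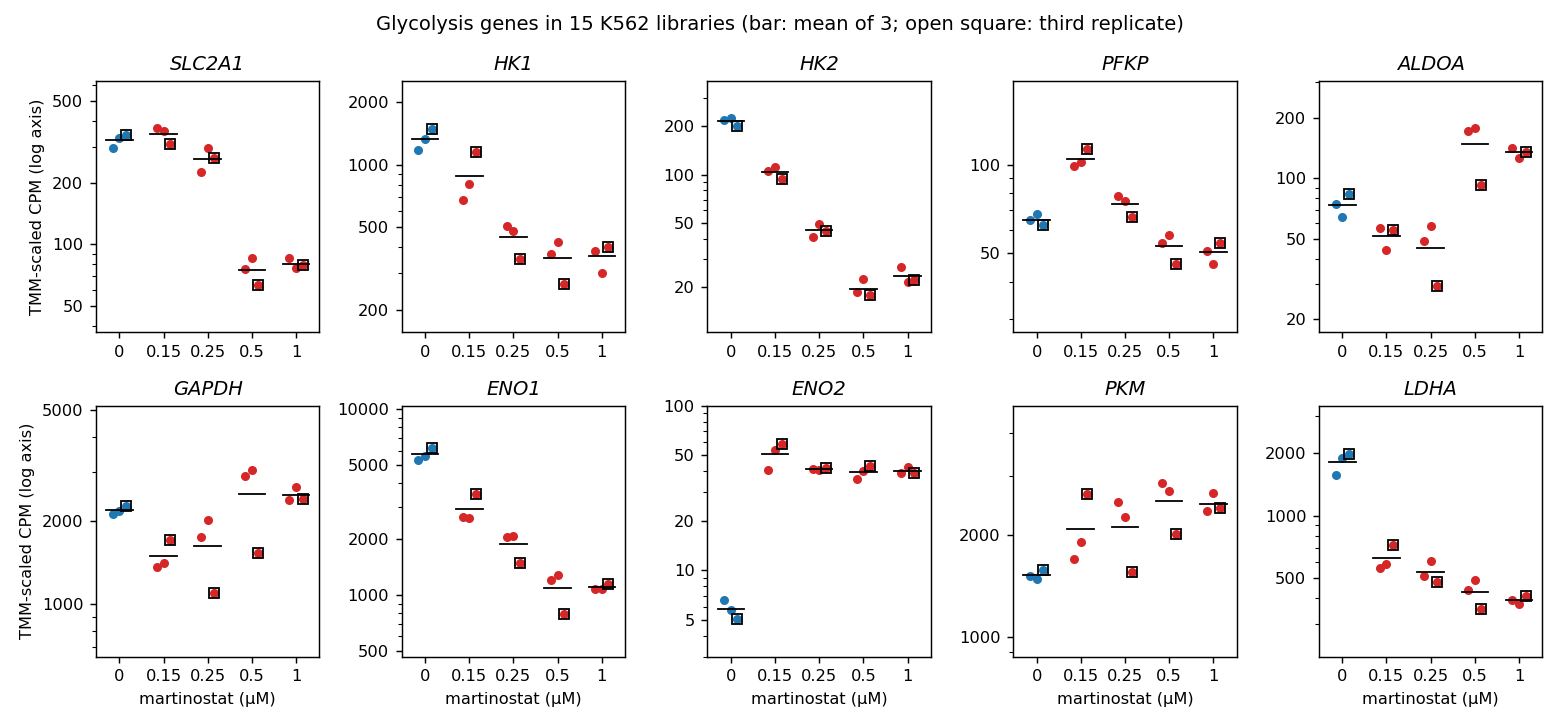
TMM-scaled CPM on a log axis against martinostat dose in µM for each of the 10 genes, 1 point per library, blue for untreated and red for treated cells, with a bar at the mean of 3 and an open square around the third replicate. HK2, ENO1 and LDHA step down from 0.15 µM on, SLC2A1 drops between 0.25 and 0.5 µM, ENO2 is up at every dose, and the third replicates at 0.25 and 0.5 µM lie low for ALDOA, GAPDH, ENO1, PKM and HK1.

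Counted over the 10 genes at an adjusted p under 0.05 (edgeR, Benjamini-Hochberg over all 23711 genes), 2 were higher and 4 lower at 0.15 µM, beside 31.9% of all tested genes higher and 19.4% lower. The split was 4 higher and 3 lower with library totals in place of TMM. At 0.25 µM 1 was higher and 5 lower, beside 37.4% and 24.8% of all genes; with library totals it was 3 and 4. At 0.5 µM 3 were higher and 6 lower, beside 39.4% and 27.6%, and at 1 µM again 3 and 6, beside 38.8% and 27.5%; library totals gave 4 and 5 at both doses. Most tested genes are expressed at low levels, and these more often rose. Among the 10124 genes averaging 10 CPM or more, to which all 10 members belong, 21.1% were higher and 40.2% lower at 0.15 µM. These shares were 22% and 48.7% at 0.25 µM, 26.5% and 48.8% at 0.5 µM, and 26.4% and 48.4% at 1 µM. At 1 µM the median log2 fold change of the 10 genes was -1.13, beside -0.39 over those 10124 genes and 0.32 over all genes. Against the higher background of well expressed genes the share of members that fell is near what the other genes show, and nothing particular to the pathway is drawn from the count. In the test for any difference among the 5 groups all 10 genes passed, beside 73.6% of all genes. Without the third replicates that stood apart, 3 members were higher and 6 lower at the lowest dose. The next doses then gave 2 and 5, 4 and 5, and 3 and 6. For library totals and for this fit the share of all genes called is not given, and the shares above come from the main fit. With library totals the median log2 fold change of all genes at 0.15 µM was 0.64, against 0.28 with TMM. These other splits are counts of members only, and nothing about the pathway is drawn from them.

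SLC2A1 (ENSG00000117394, chr1:42925353-42958893, minus strand, hg38), the main glucose carrier of red cells, did not pass the test at the 2 lower doses with TMM scaling and all libraries, and fell at the 2 higher ones. Its CPM were 295, 330.0 and 341 in the untreated libraries and 370, 359 and 308 at 0.15 µM. At 0.25 µM they were 226, 294 and 263, at 0.5 µM 75.9, 85.5 and 63.1, and at 1 µM 85.3, 76.5 and 79.2. The libraries at 0.5 and 1 µM lie far below all others, and those at 0.15 µM overlap the untreated ones. Its log2 fold change against untreated cells was 0.10 ± 0.15 (SE; edgeR adjusted p = 0.59) at 0.15 µM and -0.30 ± 0.15 (adjusted p = 0.0812) at 0.25 µM. SLC2A1 fell at 0.5 µM, with a log2 fold change of -2.11 ± 0.15 (edgeR adjusted p = 6.39e-10), and at 1 µM with -2.0 ± 0.15 (adjusted p = 1.2e-09). The direction at 0.25 µM depends on the scaling, since library totals gave 0.22 (adjusted p = 0.143), while without 0.25 µM replicate 2 SLC2A1 was called lower (-0.40, adjusted p = 0.0446). At 0.15 µM 4 of 26 alternatives called SLC2A1 higher, with 0.47 under library totals (adjusted p = 0.0065), 0.36 with TMM factors computed on genes over 10 CPM and 0.41 and 0.45 with limma on FPKM.

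HK1 (ENSG00000156515, chr10:69269984-69401884, plus strand), the hexokinase found in most cells, was lower at every dose. Its CPM were 1178, 1330.2 and 1485 in untreated cells, 673, 806 and 1150.2 at 0.15 µM and 506, 481 and 351 at 0.25 µM. They were 371, 426 and 265 at 0.5 µM and 383, 300.4 and 399 at 1 µM. All treated libraries lie below all untreated ones, although the third library at 0.15 µM comes close to the lowest untreated one. Against untreated cells its log2 fold changes were -0.60 ± 0.22, -1.58 ± 0.22, -1.91 ± 0.22 and -1.88 ± 0.22 at the 4 doses (edgeR adjusted p = 0.0259, 5.34e-06, 4.17e-07 and 4.98e-07). Of 26 alternatives 9 lost the call at 0.15 µM, including library totals (-0.25, adjusted p = 0.218) and leaving out untreated replicate 2 or 3 or 0.15 µM replicate 1 or 2 (adjusted p = 0.0613, 0.0988, 0.138 and 0.089). Without the third replicates at 0.25 and 0.5 µM the log2 fold changes of HK1 at these doses were -1.41 and -1.70 (edgeR adjusted p = 5.72e-07 and 3.08e-08).

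HK2 (ENSG00000159399, chr2:74834127-74893359, plus strand), the inducible hexokinase of many tumors, had the largest fall of the 10 genes. Untreated libraries had 219, 226 and 201 CPM, and those at 0.15 µM had 106, 112 and 94.0. At 0.25 µM the values were 40.8, 49.7 and 44.9, at 0.5 µM 18.6, 22.4 and 17.8, and at 1 µM 26.8, 21.6 and 22.2. The groups do not overlap from untreated cells to 0.5 µM, and the 2 highest doses overlap each other. At the rising doses the log2 fold change was -1.05 ± 0.14, -2.25 ± 0.14, -3.46 ± 0.15 and -3.19 ± 0.15 (edgeR adjusted p = 4.31e-06, 2.25e-10, 8.12e-13 and 1.9e-12). The third replicates at 0.25 and 0.5 µM were at 0.992 and 0.872 of the mean of the other 2 libraries of their group for HK2, against 0.712 and 0.666 for HK1.

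PFKP (ENSG00000067057, chr10:3066333-3137718, plus strand) rose at the lowest dose and was lower again at the higher ones. Its CPM were 64.9, 68.1 and 62.3 in untreated cells and 98.9, 102 and 113 at 0.15 µM, all 3 above. They were 78.0, 75.5 and 66.4 at 0.25 µM, 54.4, 57.9 and 46.0 at 0.5 µM and 50.8, 46.2 and 54.4 at 1 µM. The values at the 2 highest doses lie below all untreated values, but by little. The rise at 0.15 µM was 0.68 ± 0.13 on the log2 scale (edgeR adjusted p = 0.000226) and kept its call in all 26 alternatives. The log2 fold change was 0.17 ± 0.13 at 0.25 µM (adjusted p = 0.262), -0.30 ± 0.13 at 0.5 µM (adjusted p = 0.0461) and -0.37 ± 0.13 at 1 µM (adjusted p = 0.0178). At 0.25 µM 5 of 26 alternatives called PFKP higher, with 0.69 under library totals (adjusted p = 5.06e-05), 0.59 with TMM factors computed on genes over 10 CPM, 0.43 with at least 10 counts in every library and 0.33 and 0.62 with limma on FPKM. At 0.5 µM the call held in 3 of 26 alternatives and the sign turned with library totals, to 0.06. At 1 µM it held in 18 of 26 and was lost without untreated replicate 2 (-0.34, adjusted p = 0.0672) or 1 µM replicate 2 (-0.31, adjusted p = 0.0776). With library totals the value at 1 µM was -0.02 (adjusted p = 0.91), and with TMM factors computed on genes over 10 CPM it turned to 0.01. From 0.15 to 1 µM PFKP fell by 1.05 on the log2 scale (SE 0.13, edgeR adjusted p = 2.69e-06), and this kept its call in all 26.

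ALDOA (ENSG00000149925, chr16:30064164-30070457, plus strand) was lower at 0.25 µM, a call that depends on the setting, and higher at the 2 highest doses. Its CPM were 74.3, 64.7 and 83.4 in untreated cells, 56.7, 44.1 and 55.4 at 0.15 µM and 48.6, 57.8 and 29.4 at 0.25 µM. They were 172, 179 and 92.9 at 0.5 µM and 142, 126 and 135 at 1 µM. All libraries of the first 2 doses lie below the untreated ones and all of the last 2 above, with the third replicates at 0.25 and 0.5 µM at 0.552 and 0.529 of the mean of the other 2. Across the 4 doses the log2 fold changes were -0.51 ± 0.24 (edgeR adjusted p = 0.0821), -0.71 ± 0.24 (adjusted p = 0.015), 1.00 ± 0.24 (adjusted p = 0.0013) and 0.86 ± 0.24 (adjusted p = 0.00409). Of 26 alternatives 7 dropped ALDOA at 0.25 µM, including library totals (-0.22, adjusted p = 0.314) and leaving out 0.25 µM replicate 3 (-0.45, adjusted p = 0.0745) or untreated replicate 3 (-0.62, adjusted p = 0.0588). At 0.15 µM 5 of 26 alternatives called ALDOA lower, among them only the 2 groups compared (-0.48, adjusted p = 0.00398) and the third replicates at 0.25 and 0.5 µM left out (-0.51, adjusted p = 0.00128). Without these 2 libraries its log2 fold changes at 0.25 and 0.5 µM were -0.45 and 1.28 (edgeR adjusted p = 0.00735 and 9.83e-09). Of all its annotated exon bases, 42.8% lie under another gene of the same strand and 13.6% under one of the opposite strand.

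GAPDH (ENSG00000111640, chr12:6534512-6538374, plus strand) gave no call against untreated cells with TMM scaling and all libraries. Its CPM were 2118, 2173 and 2259 in untreated cells, 1367, 1406 and 1710.1 at 0.15 µM and 1741, 2013 and 1098 at 0.25 µM. They were 2892, 3060.0 and 1532 at 0.5 µM and 2381, 2652 and 2406 at 1 µM. The untreated and 1 µM libraries are tight, while at 0.25 and 0.5 µM the third replicate stood at 0.585 and 0.515 of the mean of the other 2. Its log2 fold changes against untreated cells were -0.55 ± 0.24, -0.43 ± 0.24, 0.19 ± 0.24 and 0.18 ± 0.24 (edgeR adjusted p = 0.0621, 0.121, 0.487 and 0.51) and neither direction was shown. Other settings gave calls: with the third replicates of both these doses left out GAPDH was lower at 0.15 µM (-0.54, adjusted p = 0.000285) and higher at 0.5 µM (0.49, adjusted p = 0.00174), with -0.19 at 0.25 µM (adjusted p = 0.198), and with library totals it was higher at 1 µM (0.54, adjusted p = 0.00779). From 0.15 to 1 µM GAPDH rose by 0.73 ± 0.24 on the log2 scale (edgeR adjusted p = 0.0178), a call lost without 0.15 µM replicate 1 or 2 or 1 µM replicate 2 (adjusted p = 0.0708, 0.0655 and 0.0559). Its 65 annotated processed pseudogenes held 509 fragments over the untreated libraries and 1009 over those at 1 µM, against 165940 and 213104 for GAPDH itself. How many fragments match both was not tested.

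ENO1 (ENSG00000074800, chr1:8861000-8879190, minus strand), the enolase of most tissues, was the most abundant member in untreated cells and fell at every dose. Its CPM were 5369.8, 5645 and 6159.9 in untreated cells, 2622, 2617 and 3522 at 0.15 µM and 2052, 2088 and 1492 at 0.25 µM. They were 1201, 1282 and 793 at 0.5 µM and 1082, 1084 and 1149 at 1 µM. No treated library reached the untreated range. The log2 fold changes were -0.97 ± 0.20, -1.61 ± 0.20, -2.39 ± 0.21 and -2.37 ± 0.21 (edgeR adjusted p = 0.000511, 1.63e-06, 8.42e-09 and 9.11e-09). The third replicates at 0.25 and 0.5 µM were at 0.721 and 0.639 of the mean of the other 2, and without them the values at these doses were -1.44 and -2.17 (edgeR adjusted p = 2.89e-09 and 2.12e-12). Its partner ENO2 (ENSG00000111674, chr12:6913745-6923698, plus strand) went the other way at the lowest dose and stayed there. Untreated libraries had 6.62, 5.75 and 5.08 CPM, from 162, 149 and 130 fragments. At 0.15 µM ENO2 had 40.5, 54.0 and 58.9 CPM, at 0.25 µM 41.5, 40.5 and 41.8, at 0.5 µM 36.0, 40.4 and 42.9, and at 1 µM 39.1, 42.6 and 39.0. Every treated library lies above every untreated one, and the 4 doses overlap one another. Against untreated cells its log2 fold changes were 3.14 ± 0.16, 2.83 ± 0.16, 2.77 ± 0.16 and 2.79 ± 0.16 (edgeR adjusted p = 2.47e-11, 5.54e-11, 3.31e-11 and 3.06e-11), and the third replicates at 0.25 and 0.5 µM were close to the other 2 for this gene, at 1.02 and 1.12 of their mean.

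PKM (ENSG00000067225, chr15:72199029-72231819, minus strand), whose transcripts encode the muscle and tumor forms of pyruvate kinase that gene counts cannot separate, rose at the 2 highest doses. Its CPM were 1508, 1483 and 1577 in untreated cells, 1700.4, 1911 and 2649.6 at 0.15 µM and 2503, 2264 and 1557 at 0.25 µM. They were 2844, 2695 and 2010.4 at 0.5 µM and 2363, 2666 and 2403 at 1 µM. All libraries but the third at 0.25 µM lie above the untreated ones. Across the 4 doses the log2 fold changes were 0.45 ± 0.20 (edgeR adjusted p = 0.0711), 0.47 ± 0.20 (adjusted p = 0.0536), 0.72 ± 0.21 (adjusted p = 0.00442) and 0.70 ± 0.21 (adjusted p = 0.00554). At the 2 lower doses PKM passed the test in 11 and 13 of 26 alternatives, with 0.81 and 0.97 under library totals and 0.46 and 0.67 (adjusted p = 0.00506 and 0.000371) without the third replicates at 0.25 and 0.5 µM. Without these 2 libraries the value at 0.5 µM was 0.90 (adjusted p = 8.37e-06). LDHA (ENSG00000134333, chr11:18394560-18408425, plus strand) made most of its fall by the lowest dose. Its CPM were 1576, 1899.8 and 1989 in untreated cells, 563, 588 and 719.6 at 0.15 µM and 512, 606 and 483 at 0.25 µM. They were 439, 489 and 357 at 0.5 µM and 394, 378 and 409 at 1 µM. Every treated library lies far below every untreated one. Its log2 fold changes against untreated cells were -1.55 ± 0.17, -1.77 ± 0.17, -2.09 ± 0.17 and -2.21 ± 0.17 (edgeR adjusted p = 4e-07, 4.34e-08, 3.12e-09 and 1.54e-09).

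**Figure D2:**
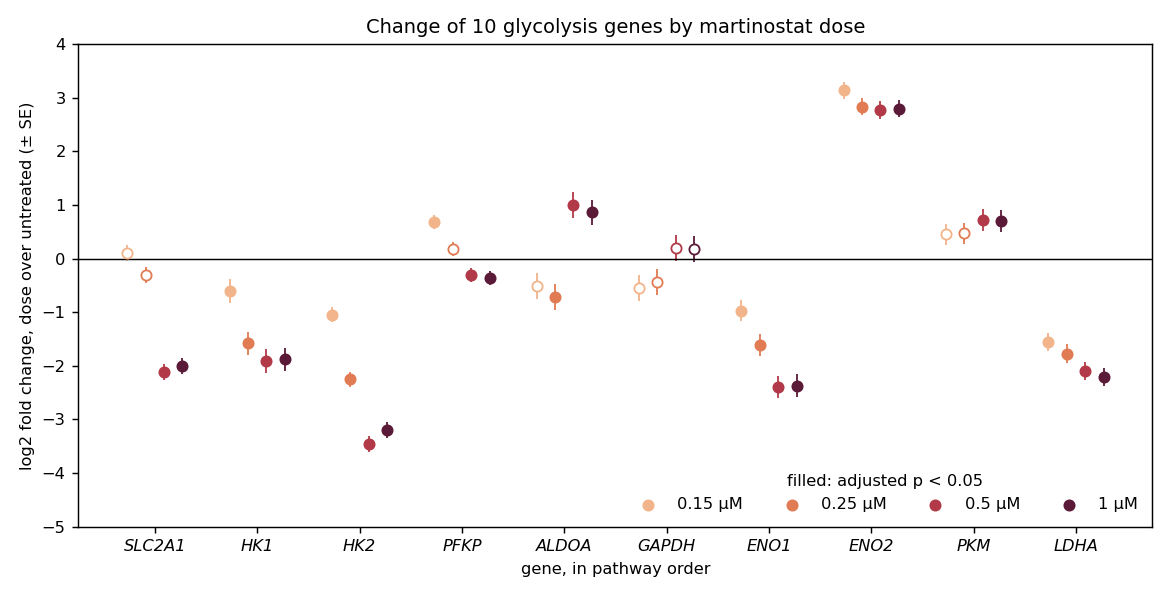
The log2 fold change of each of the 10 genes against untreated cells (y axis, points ± SE) at the 4 doses of martinostat, with genes in pathway order on the x axis and filled points for an adjusted p under 0.05. HK2 reaches -3.46 at 0.5 µM, ENO2 lies near 3 at every dose, and ALDOA and PFKP cross 0 in opposite directions as the dose rises.

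The steps between doses showed where each gene moved. From 0.15 to 0.25 µM 4 of the 10 genes passed, beside 12.3% of all genes, and all 4 fell: HK2 by 1.20, HK1 by 0.98, ENO1 by 0.64 and PFKP by 0.51 on the log2 scale (edgeR adjusted p = 4.07e-05, 0.00667, 0.0429 and 0.0142). The call for ENO1 held in 9 of 26 alternatives only, and that for PFKP in 22. Leaving out 0.15 µM replicate 3 or 0.25 µM replicate 3 reduced the 4 calls to 2. From 0.25 to 0.5 µM 5 passed, beside 30.4% of all genes. SLC2A1 fell by 1.80, HK2 by 1.20, ENO1 by 0.78 and PFKP by 0.47, and ALDOA rose by 1.71 (edgeR adjusted p = 5.77e-08, 2.9e-06, 0.00567, 0.00895 and 3.63e-05). Same-numbered libraries of these 2 doses deviated together (r = 0.266, 0.268 and 0.579). So did 0.25 µM replicate 2 with 0.5 µM replicate 1 (r = 0.236). The third replicate of each dose ran against replicates 1 and 2 of the other (r from -0.414 to -0.299). A pairing by number beyond the third replicates is therefore not shown. With the replicate number as a block in a fit of these 6 libraries 9 of the 10 genes passed, beside 46.1% of the 21562 genes tested in that fit. GAPDH was among them (0.60, edgeR adjusted p = 0.000119). Without the third replicates at 0.25 and 0.5 µM 5 members passed from 0.15 to 0.25 µM and 6 from 0.25 to 0.5 µM. The shares of all genes in the fits with libraries left out are not given, so these are counts of members only. From 0.5 to 1 µM 0 genes passed in edgeR, members and all genes alike (0%), and DESeq2 also called 0. At an unadjusted p under 0.05 the step held 0 of the 10 genes and 372 of all 23711. The largest difference among the members there was HK2, with 0.26 ± 0.14 on the log2 scale. Between the lowest and the highest dose 8 passed, beside 44.5% of all genes. SLC2A1 and HK2 fell by 2.11 and 2.14, ENO1 by 1.40, HK1 by 1.28, PFKP by 1.05 and LDHA by 0.66, and ALDOA and GAPDH rose by 1.37 and 0.73. ENO2 (-0.35 ± 0.15, edgeR adjusted p = 0.0638) and PKM (0.25 ± 0.20, adjusted p = 0.347) did not pass between these doses.

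The sequence before the transcription start is shown for the genes with the largest fall and the largest rise and for the enolase partner of the latter, as the 250 bases upstream of the RefSeq start (GRCh38.p14), 5′ to 3′ on the strand of the gene. Capitals mark ACGTG and GGGCGG on either strand, the core of the hypoxia response element and the GC box. The windows are HK2 at chr2:74833877-74834126 (plus strand), ENO2 at chr12:6914330-6914579 (plus strand) and ENO1 at chr1:8878687-8878936 (minus strand). Longer annotated transcripts of ENO2 and of ENO1 start further upstream, so the windows of both lie within the annotated gene.
HK2: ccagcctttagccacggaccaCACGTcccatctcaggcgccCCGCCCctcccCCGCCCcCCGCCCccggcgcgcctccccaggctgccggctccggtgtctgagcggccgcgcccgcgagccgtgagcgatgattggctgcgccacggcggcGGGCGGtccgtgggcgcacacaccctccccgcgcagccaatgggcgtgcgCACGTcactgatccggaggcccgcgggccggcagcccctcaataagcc
ENO2: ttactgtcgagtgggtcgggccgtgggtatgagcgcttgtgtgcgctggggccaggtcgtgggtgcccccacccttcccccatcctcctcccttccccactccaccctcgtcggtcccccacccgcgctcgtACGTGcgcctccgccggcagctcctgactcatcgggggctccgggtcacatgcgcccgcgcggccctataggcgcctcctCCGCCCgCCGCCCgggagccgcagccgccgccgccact
ENO1: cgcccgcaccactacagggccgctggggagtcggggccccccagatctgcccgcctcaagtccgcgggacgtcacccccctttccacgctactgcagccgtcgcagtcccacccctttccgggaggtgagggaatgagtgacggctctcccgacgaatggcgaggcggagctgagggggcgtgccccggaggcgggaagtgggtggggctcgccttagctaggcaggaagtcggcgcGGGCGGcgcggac
The HK2 window holds ACGTG 2 times and GGGCGG 4 times, that of ENO2 1 and 2 times, and that of ENO1 0 and 1 times. Of 35116 RefSeq promoter windows of this length, 18.5% hold ACGTG and 42.6% GGGCGG. The HK2, ENO2 and ENO1 windows are 76.8%, 74% and 72% G or C. The LDHA window holds ACGTG at 3 places. At 2 of them it lies within CACGTG, which reads the same on both strands and which 6.34% of all windows hold. The SLC2A1 window holds ACGTG 0 times. These are matches of letters only, and their part in the changes of the genes was not tested.

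The share of each isoform was taken from CPM per kb of exon in the same library. A further enolase gene, ENO3, was left out of the enolase share, with 2.60 CPM per kb in untreated cells, above the 1.36 of ENO2, and 1.44 at 1 µM. ENO2 made up 0.150%, 0.124% and 0.10% of ENO2 plus ENO1 in the untreated libraries, 1.85%, 2.45% and 2.00% at 0.15 µM, and 2.41%, 2.31% and 3.30% at 0.25 µM. It reached 3.52%, 3.70% and 6.19% at 0.5 µM and 4.22%, 4.57% and 3.97% at 1 µM. All treated libraries exceeded all untreated ones, yet ENO1 remained by far the more abundant. The mean share was higher than in untreated cells by 1.97, 2.55, 4.35 and 4.13 percentage points at the 4 doses (exact two-sided permutation test, p = 0.1 each, 0.114 adjusted over 8 tests), where 3 libraries against 3 cannot give a p below 0.1. HK2 made up 17.8%, 16.5% and 13.6% of HK2 plus HK1 in untreated cells and 15.4%, 13.9% and 8.67% at 0.15 µM. It made up 8.57%, 10.7% and 12.9% at 0.25 µM, 5.49%, 5.75% and 7.25% at 0.5 µM and 7.52%, 7.70% and 6.06% at 1 µM. The groups overlap at 0.15 µM and not at the higher doses. The differences of the mean were -3.27, -5.21, -9.78 and -8.85 percentage points (exact permutation p = 0.3, 0.1, 0.1 and 0.1, adjusted 0.3, 0.114, 0.114 and 0.114).

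Shares of 4 further pairs, chosen after their values were seen, are given as a description. SLC2A3 (GLUT3), the glucose carrier known from neurons, made up 25.5% ± 0.971 (SD, n = 3) of SLC2A3 plus SLC2A1 in untreated cells. It made up 26.0% ± 4.29, 44.9% ± 3.52, 87.7% ± 2.09 and 86.8% ± 0.381 at the rising doses. The change of carrier fell mostly between 0.25 and 0.5 µM, the same step at which SLC2A1 dropped. SLC2A3 itself averaged 121 CPM untreated and 580.2 at 1 µM (log2 fold change 2.26 ± 0.15, edgeR adjusted p = 1.73e-10). ALDOC made up 18.1% ± 2.62 of ALDOC plus ALDOA in untreated cells and 50.5% ± 3.99 at 0.15 µM. At the higher doses it made up between 58.1% and 63.1% on average. The level of ALDOA is uncertain as above in every group, and so is this share. Other genes cover 89.8% of the reference transcript of ALDOA, against 18.2% for ALDOC. PKLR, the red cell pyruvate kinase gene, made up 25.3% ± 0.754 of PKLR plus PKM in untreated cells and 2.84% ± 0.424, 1.83% ± 0.593, 1.88% ± 0.853 and 2.45% ± 0.186 at the 4 doses. Its mean level was 190.3 CPM untreated, 22.1 at 0.15 µM and 22.96 at 1 µM. LDHB made up between 7.93% and 11.9% on average in all groups, with libraries that overlap between untreated cells and each dose but 0.15 µM, although LDHA and LDHB both fell at 1 µM. The share of LDHB is uncertain too, since 76.5% of its reference transcript lies under other genes, against 0% for LDHA.

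**Figure D3:**
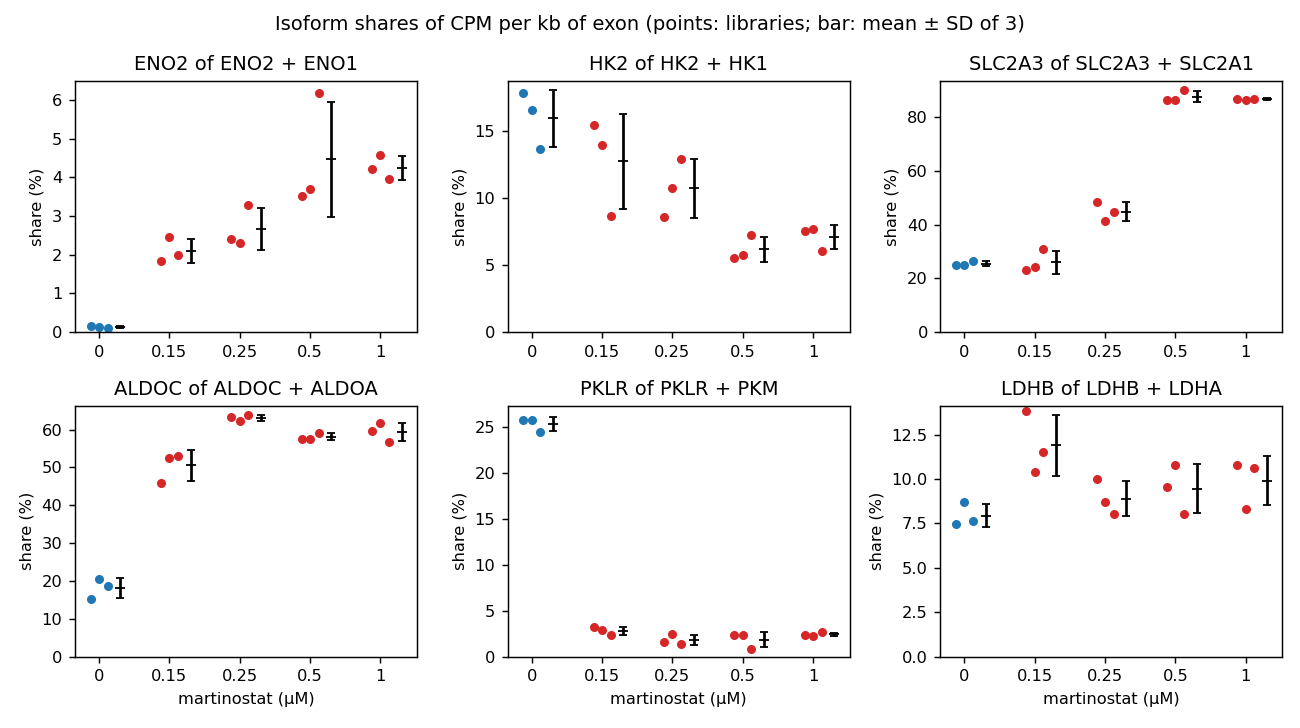
Share in percent of 1 isoform of each pair, from CPM per kb of exon, against martinostat dose in µM, with 1 point per library and the mean ± SD of 3 beside it (axes start at 0). SLC2A3 passes 80% from 0.5 µM on, ALDOC exceeds ALDOA in every library from 0.25 µM on, PKLR drops at the lowest dose, and ENO2 climbs from 0.125% while staying a small part of the enolases.

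Genes around the pathway were counted in lists at 1 µM. Beside each list stand 38.8% of all tested genes higher and 27.5% lower. Among genes averaging at least 10 CPM these shares were 26.4% and 48.4%. Of 20 other glycolytic enzymes and isoforms 14 were tested, of which 4 were higher and 8 lower (median log2 fold change -0.77). ALDOC rose by 3.58 and TPI1 (triose phosphate isomerase) by 0.92, from 1094 to 2065 CPM. HKDC1, a hexokinase-like gene, was called at a very low level, from 0.107 to 0.466 CPM, and lost the call in 4 alternatives. PKLR fell by 3.05, PGAM1 (phosphoglycerate mutase) by 2.0, LDHB by 1.86 and PGK1 (phosphoglycerate kinase) by 1.57 on the log2 scale, and 76.5% of the reference transcript of LDHB lies under other genes. The later steps of the pathway held both directions, with GAPDH not called, PGK1, PGAM1 and ENO1 down and PKM up.

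Of 13 carriers of glucose and lactate 11 were tested, with 8 higher, 1 lower and a median of 2.43, beside 38.8% and 27.5% of all tested genes. Among them SLC2A4, SLC2A10, SLC16A3 and SLC16A7 averaged below 10 CPM in every group, and genes at low levels more often rose. SLC2A6 rose by 5.47, from 0.552 to 24.7 CPM, SLC2A12 by 2.97 and SLC2A10 by 3.33, the last to 0.699 CPM only. Other genes cover 51.2% of the reference transcript of SLC2A12. SLC16A7, a monocarboxylate carrier, was called at 0.64 CPM against 0.0261 CPM. SLC16A1 (MCT1), the main lactate carrier, was the gene called lower, from 379 to 279 CPM (-0.44, adjusted p = 0.00635), and lost its call in 5 alternatives. All 5 genes that set fructose 2,6-bisphosphate, the activator of phosphofructokinase, were tested, with 3 higher and 1 lower (median 1.23). TIGAR rose by 4.22, from 0.312 to 5.94 CPM, PFKFB1 by 3.23, to 1.03 CPM only, and PFKFB2 by 1.23, from 28.1 to 65.7 CPM, while PFKFB4 fell by 0.89.

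Where pyruvate enters the mitochondrion, 5 of 13 tested genes were higher and 6 lower (median -0.26). Some pyruvate dehydrogenase kinases, which switch the dehydrogenase off, were among those that rose: PDK3 by 5.87, from 0.397 to 23.4 CPM, PDK4 by 4.68 and PDK2 by 1.87. Other genes cover 62.8% of the reference transcript of PDK2. The kinase PDK1 did not rise, averaging 18.2 CPM untreated and 15.8 CPM at 1 µM with overlapping libraries. The phosphatase PDP1, which switches the dehydrogenase on, rose by 2.77, while the phosphatase PDP2 averaged 63.3 CPM untreated and 52.9 CPM at 1 µM. The dehydrogenase subunits DLAT, PDHX and PDHA1 fell by 2.05, 1.77 and 1.47, and the pyruvate carrier subunit MPC1 by 0.95. In gluconeogenesis 6 of 7 genes were tested, with 4 higher and 1 lower (median 1.88). PCK1 and FBP1 had 0 fragments in all untreated libraries and 149 and 124 over the 3 libraries at 1 µM, at least 43.9-fold and 36.6-fold higher against a floor of 3 fragments over the untreated group, at 1.73 and 1.44 CPM. FBP2 rose by 2.64 and PC (pyruvate carboxylase) by 1.13, and PCK2 fell by 1.53.

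All 9 genes of the pentose phosphate pathway, which branches off after hexokinase, were tested, with 3 higher and 3 lower (median -0.32). H6PD rose by 1.58, from 22.3 to 66.4 CPM, and TKTL1 by 5.83. RPIA fell by 3.33, from 55.2 to 5.48 CPM, RPE by 1.46 and TKT by 0.67, the last losing its call in 9 alternatives. Of the 8 genes of the hypoxia-inducible factor system, which is known to induce many glycolysis genes, 4 were higher and 3 lower (median -0.04). HIF1A fell by 1.28, from 21.7 to 8.93 CPM, VHL by 0.79 and EGLN1 by 0.80. EPAS1 rose by 0.99, HIF1AN by 0.92, EGLN3 by 0.87 and ARNT by 0.45. Other genes cover 69.3% of the reference transcript of EGLN1. Of 12 common reference genes 0 were higher and 8 lower in edgeR (median -0.75), with HPRT1, TFRC and PPIA lower by 1.60, 1.34 and 1.01. At an unadjusted p under 0.05 8 passed, and DESeq2 called 0 higher.

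**Figure D4:**
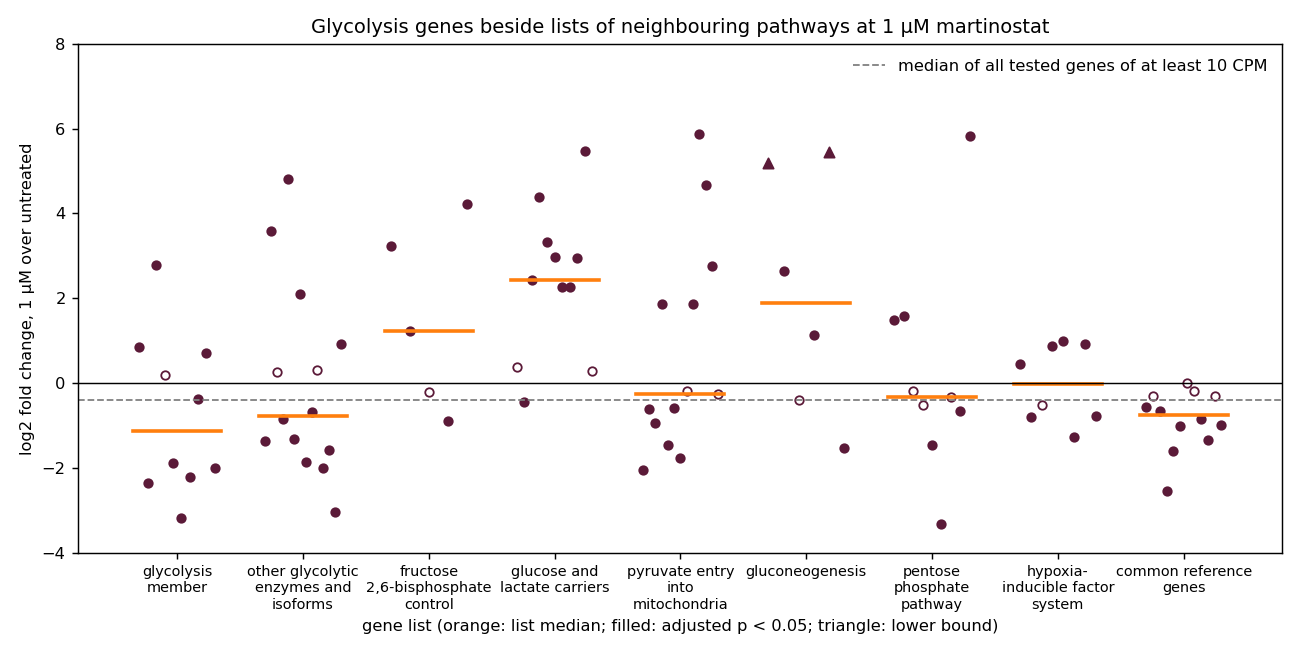
Log2 fold change at 1 µM against untreated cells for the 10 glycolysis genes and the members of 8 further lists (y axis), 1 point per tested gene, filled for an adjusted p under 0.05, with the list median in orange and the median of all tested genes of at least 10 CPM as a dashed line at -0.39. Triangles mark PCK1 and FBP1 at the lower bound of their fold, since both had 0 fragments in untreated cells. The glycolysis median lies at -1.13 and that of the carriers at 2.43, and each list but the reference genes holds calls in both directions. The carriers include genes below 10 CPM, which the dashed line leaves out.

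Over the 15 libraries the members followed a few patterns (Pearson's r of log2 CPM, given as a description because the libraries share 5 dose groups). HK1 and ENO1 were most alike (r = 0.973), followed by HK2 with ENO1 (0.969) and LDHA with ENO1 (0.941). ALDOA and GAPDH formed another pair (0.875). ENO2 ran opposite to LDHA (r = -0.904), ALDOA opposite to SLC2A1 (-0.802) and PKM opposite to HK2 (-0.746). Among the 10123 other genes averaging 10 CPM or more, the nearest pattern was CMTM3 for SLC2A1 (0.992), NMT1 for HK1 (0.992), TYMS for HK2 (0.996), AEBP1 for PFKP (0.986) and NAPA for ALDOA (0.973). For the remaining genes it was GOT1 for GAPDH (0.968), NDUFS6 for ENO1 (0.995), CDK18 for ENO2 (0.989), TRAPPC1 for PKM (0.963) and PSMB2 for LDHA (0.996).

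The scaling of the libraries moved all members together. The median log2 fold change of all genes at 1 µM was 0.32 with TMM, 0.38 with RLE, 0.67 with library totals and 0.70 with TMM factors computed on genes over 10 CPM. Relative to that median, HK2 lay at -3.51 under each of the 4, and the members kept their distances from one another. HK2 lay at -3.19, -3.13, -2.84 and -2.81, ENO1 at -2.37, -2.31, -2.02 and -1.99, and ENO2 at 2.79, 2.85, 3.14 and 3.17. PFKP and GAPDH, the members nearest to 0, are those whose call or sign at 1 µM depends on this choice.

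**Figure D5:**
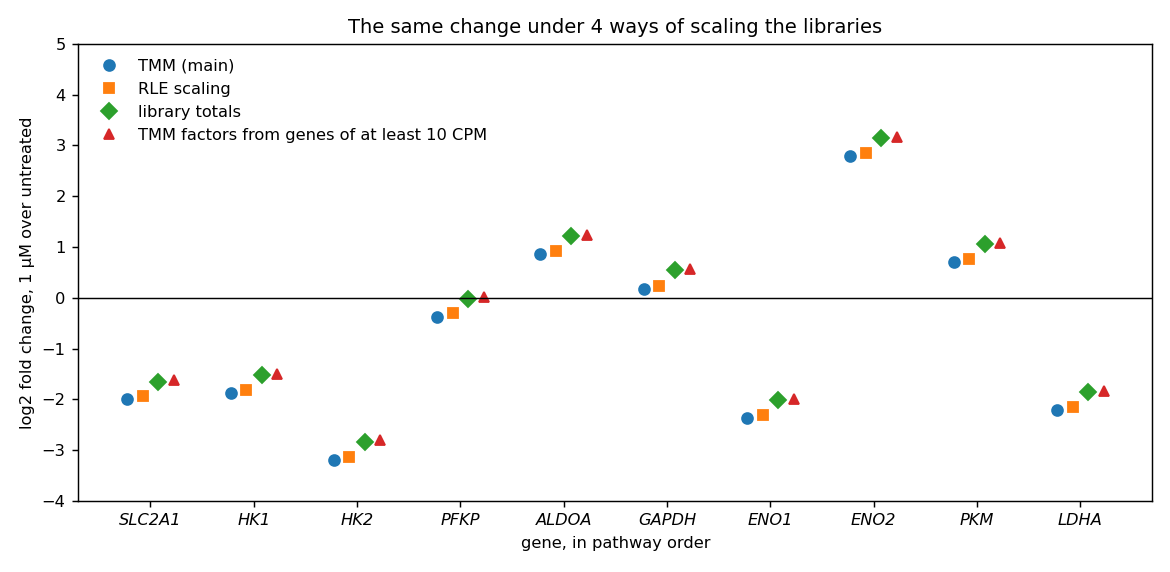
Log2 fold change of the 10 genes at 1 µM against untreated cells (y axis) under 4 ways of scaling the libraries (symbols), with genes in pathway order on the x axis. The 4 symbols of each gene shift together, the 6 genes beyond 1 keep their side of 0, and PFKP lies within 0.02 of 0 under 2 of the 4.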

How the data were processed

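Poly(A) RNA of K562 cells was sequenced as paired ends from directional libraries. Per the labels and the methods of the study, reads were trimmed with Trim Galore 0.6.10, aligned to hg38 with HISAT2 2.2.1 and handled with SAMtools 1.21. The authors counted fragments per GENCODE gene with featureCounts 1.5.3 and deposited raw counts of 60649 genes in 15 libraries, not normalized. The authors also deposited FPKM per library. For 9 of the 10 members these equal the count divided by the library total and by the gene's whole length from first to last base with its introns, and for PKM by a length that differs from the span used here by a few bases. They were used only as an alternative.

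Symbols and exons came from a later GENCODE release on hg38 (60463 identifiers, 99.7%, matched, version dropped). Counts of the 23711 genes that passed filterByExpr were fitted in edgeR 4.0.16 (R 4.3.3) with TMM scaling and robust quasi-likelihood F tests, all 5 groups in 1 fit, with Benjamini-Hochberg adjustment over all genes and a call at an adjusted p under 0.05. The residual degrees of freedom were 10 and the biological coefficient of variation 0.228. Counting error is small beside that spread for the 10 members at this depth. It is not small for list genes with few fragments, such as SLC16A7 with 2 and PFKFB1 with 8 over the untreated libraries. In simulated counts the test found 43 of 47 genes changed by -2 and 17 of 47 changed by -1 on the log2 scale between untreated cells and 1 µM (22321 genes). There 22128 genes were unchanged and all genes had the same spread, whereas 73.6% of all genes differed among the groups here. The adjustment of p therefore works at another level, and these recoveries do not describe the power in the data. Shares were compared by exact permutation tests in scipy 1.17.1. Likeness used log2(CPM + 0.1). A fold against 0 fragments used a floor of 3 fragments over the group.

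Alternatives were RLE scaling, library totals, TMM factors computed on genes over 10 CPM, no count filter, at least 10 counts in every library, DESeq2 1.42.0, only the 2 groups compared, a replicate block, limma 3.58.1 on log2(FPKM + 1) and log2(FPKM + 0.1), and each library left out. Leaving out the third replicates of both 0.25 and 0.5 µM, a block within these 2 doses and the length of the reference transcript (MANE Select) for the shares were added after seeing the data.

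The members and lists were chosen with earlier results of these data known. All 10 members are named with values in every library. Of each list the up to 4 highest and up to 4 lowest genes called at 1 µM, and any called in opposite directions at 0.15 and 1 µM, are named, and for each member the gene of at least 10 CPM with the nearest pattern. Some genes that this rule selects are not reported here. The replicate numbers come from the labels. Same-numbered libraries at 0.25 and 0.5 µM deviated together (r = 0.266, 0.268 and 0.579), and same-numbered libraries of other groups correlated by at most 0.0918. Differently numbered libraries of 0.25 and 0.5 µM ran from -0.414 to 0.236, so a pairing by number beyond the third replicates is not shown. No 2 libraries of a group agreed within counting noise (chi-square over its degrees of freedom at least 6.15).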

Additional observations from a re-analysis of the deposited data

How the results depend on the processing

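Of 58 results for single members (log2 fold changes against untreated cells, and at the dose steps where a member passed), 40 kept their direction and their side of the threshold in all alternatives. HK2, ENO1, LDHA and ENO2 did so at all 4 doses, HK1 from 0.25 µM and SLC2A1, ALDOA and PKM at 0.5 and 1 µM. SLC2A1 at 0.25 µM turned to 0.22 with library totals, 0.12 with TMM factors computed on genes over 10 CPM and 0.19 and 0.21 with limma on log2(FPKM + 1) and log2(FPKM + 0.1). In the same order PFKP at 0.5 µM turned to 0.06, 0.10, 0.03 and 0.05. PFKP at 1 µM turned to 0.01 with TMM factors computed on genes over 10 CPM, and GAPDH at 0.25 µM to 0.07 with library totals and 0.04 with both limma settings. The cause was not tested.

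The number of members called higher at 0.15 µM was 4 with library totals, with TMM factors computed on genes over 10 CPM and with both limma settings, against 2. For most alternatives the share of all genes called is not given, so the numbers in this paragraph are counts of members only. At 0.25 µM it was 3 with these and with at least 10 counts in every library, and 2 with RLE, no count filter, DESeq2, only the 2 groups compared and the third replicates at 0.25 and 0.5 µM left out together, against 1. From 0.15 to 0.25 µM only the 2 groups compared gave 2 calls against 4, and from 0.25 to 0.5 µM library totals gave 8 against 5. With each library left out in turn, the calls ranged from 2 to 3 higher and 3 to 6 lower at 0.15 µM, from 1 to 2 and 4 to 7 at 0.25 µM, from 3 to 4 and 5 to 6 at 0.5 µM and from 3 to 3 and 5 to 6 at 1 µM. At the steps they ranged from 2 to 5, from 5 to 6, from 0 to 0 and, from 0.15 to 1 µM, from 7 to 8. With the replicate block over all groups 5 members passed from 0.25 to 0.5 µM, and PFKP at 0.5 µM (adjusted p = 0.0582) and ENO1 from 0.15 to 0.25 µM (adjusted p = 0.0555) lost their calls. The replicate block within these 2 doses gave 9. The block changed no other call of a member.

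The difference in the share of ENO2 was 1.63 and 3.41 percentage points at 0.15 and 1 µM from counts without length, and 1.27, 1.64, 2.82 and 2.67 at the 4 doses with the length of the reference transcript. With that length the share of HK2 differed by -5.98 at 0.5 µM and -5.44 at 1 µM. With each library left out, the ENO2 differences ranged from 1.80 to 2.10, 2.23 to 2.73, 3.49 to 4.82 and 3.97 to 4.27 points, and those of HK2 from -4.66 to -1.27, -6.38 to -4.12, -11.0 to -8.87 and -10.0 to -7.94. Of 47 list genes selected at 1 µM, 0 changed sign and 6 lost their call in some alternative, namely EGLN1, HKDC1, PFKFB1, SLC16A1, SLC16A7 and TKT.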
